A study of Homo sapiens with 24 samples.

Results

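The genes described here are the zinc finger genes of human chromosome 19, taken as the protein-coding GENCODE genes of that chromosome whose symbol is ZNF followed by digits only and whose mean over the 24 count files was at least 100 counts. Each file listed 60279 genes, of which 240 had such a symbol and place. Of these, 187 reached the limit and are called members below, and 53 did not. The members were thus chosen by their mean count over all libraries, whatever the group. A member near the limit can therefore owe its place to a group where it was high. The members just inside the limit were ZNF578 (mean 100.2 counts), ZNF443 (101.7) and ZNF429 (107.4), and the genes just outside it were ZNF805 (98.0), ZNF57 (97.8) and ZNF546 (94.9).

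All 24 libraries came from SW872, a human liposarcoma cell line, and were made from polyadenylated RNA. The cells were stably transduced with a retroviral vector and kept under G418, each line was a pool rather than a clone, and the 3 replicates of a group came from separate transductions. EV carried the empty vector, TAZ-CAMTA1 and YAP-TFE3 carried the gene fusions of epithelioid hemangioendothelioma, and TFE3 carried the full-length partner of the second fusion. TAZ4SA and YAP5SA carried hyperactive forms of the Hippo pathway coactivators TAZ and YAP, in which alanine stands in place of serines that the LATS kinases phosphorylate. These 6 groups were collected 48 hours after reaching confluence. CAMTA1, the full-length partner of the first fusion, and EVsub, its empty vector control, were collected before confluence, so the effect of CAMTA1 was read against EVsub and EVsub was read against EV for cell density.

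Most proteins of this family carry a row of zinc fingers that read DNA, joined to a KRAB domain that binds the corepressor TRIM28. TRIM28 in turn brings in the histone methyltransferase SETDB1, HP1 proteins and deacetylases, and many KRAB zinc finger proteins are known for silencing transposable elements. The genes arose by tandem duplication and lie in clusters along chromosome 19, and their transcripts tend to be rich in A and T. TAZ and YAP do not bind DNA themselves but act through TEAD factors, whose usual site is CATTCC, whereas TFE3 binds E-boxes such as CACGTG.

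The libraries held between 19700277 and 35287476 counts in genes. The construct genes followed the labels in YAP5SA, TAZ-CAMTA1, CAMTA1, TFE3 and YAP-TFE3, but not in TAZ4SA. WWTR1, which encodes TAZ, stood at 204 ± 20.3 CPM (mean ± SD, n = 3) in EV and at 134 ± 0.539 in the libraries labelled TAZ4SA, a log2 fold change of -0.60, SE 0.08, adjusted p = 9.77e-07. Every direction given below for that group therefore belongs to the libraries labelled TAZ4SA. CPM is a library's counts scaled to a common size with TMM factors, and adjusted p is the Benjamini-Hochberg value of edgeR's quasi-likelihood F test over all 19997 genes tested, with a threshold of 0.05. Among lists of 6 cell type markers each, the mesenchymal list summed to between 1010 and 1617 CPM. The leukocyte list summed to between 1.38 and 3.35 CPM. Of its genes, 4 averaged 5 counts or more, and PTPRC never passed 1 count. The epithelial list summed to 2.39 ± 1.23 CPM in EV and 11.4 ± 4.69 in YAP-TFE3. Of the adipocyte markers, ADIPOQ was at 0 in all 24 libraries, and CIDEC, FABP4 and PLIN1 never passed 3, 23 and 38 counts. LPL and PPARG were expressed. All 6 endothelial markers averaged 5 counts or more, a limit that 4 leukocyte markers also passed. In bulk RNA, fewer cells of a type and less RNA per cell cannot be told apart.

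Of the 187 members, 161 encode a protein with a KRAB box and 26 do not. The median member protein held 12 zinc fingers, with a range from 1 to 31, and the largest number belonged to ZNF91. Merged exons had a median length of 5653 bases and a median GC content of 43.6%, against 4319 bases and 48.5% over the genes tested that have an annotation. Members without a KRAB box had a median GC content of 58.7% and those with one 43.0%. The genes fell into 16 clusters when split at gaps of more than 1 Mb, of which 14 held members. The most populated were cluster 16 at the end of the long arm with 50 members, cluster 15 with 37 and cluster 9 with 21. On the scale of CPM per kilobase of exon, which allows genes to be compared, EV levels ranged from 0.437 for ZNF382 to 15.8 for ZNF581, with a median of 1.92. ZNF581 was also the highest in TAZ-CAMTA1, TAZ4SA, YAP5SA and TFE3, ZNF146 was the highest in EVsub and CAMTA1, and ZNF114 was the highest in YAP-TFE3.

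Summed over the members, zinc finger RNA from chromosome 19 was lowest in YAP5SA and in the libraries labelled TAZ4SA. The members summed to 2649 ± 104 CPM in EV (mean ± SD, n = 3 in each group). Their sum was 2145 ± 142 CPM in YAP5SA and 2105 ± 74.9 in the libraries labelled TAZ4SA. The other confluent groups lay near EV, with 2558 ± 88.7 CPM in TAZ-CAMTA1, 2589 ± 212 in YAP-TFE3 and 2719 ± 164 in TFE3. The sub-confluent groups were the highest, with 2927 ± 131 CPM in EVsub and 2793 ± 109 in CAMTA1. All 6 libraries of YAP5SA or labelled TAZ4SA, between 2041 and 2308 CPM, lay below all 18 others, of which the lowest held 2389 CPM. The libraries labelled TAZ4SA and those of YAP5SA overlapped each other, as did EV, TAZ-CAMTA1, YAP-TFE3 and TFE3, and EVsub overlapped CAMTA1. Counted by gene, the lowest group mean was that of the libraries labelled TAZ4SA for 90 members and of YAP5SA for 35, and the highest was that of EVsub for 59. The F test over the 8 groups called 169 members, against a background of 85.7% of all genes tested. Marker lists moved between the same groups. The adipocyte list, mostly LPL and PPARG, summed to 148 to 222 CPM in EV, 62.4 to 72.6 in the libraries labelled TAZ4SA, 114 to 128 in YAP5SA and 302 to 369 in YAP-TFE3. The endothelial list, led by KDR and CDH5 in EV, summed to 109 to 148 CPM in EV, 49.5 to 72.4 in the libraries labelled TAZ4SA, 28.5 to 38.2 in YAP5SA and 77.4 to 88.3 in YAP-TFE3. Their part in the members' values was not tested.

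**Figure D1:**
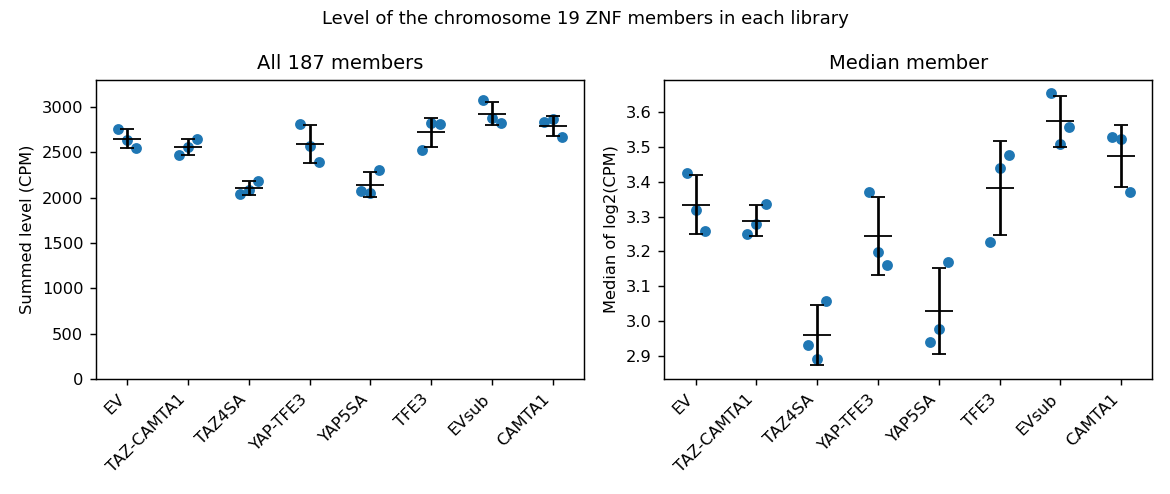
Summed level of the 187 members in CPM (left) and the median member's log2 CPM (right) in each of the 24 libraries, by group; points are libraries, horizontal marks are group means and bars are 1 SD. The 6 libraries of YAP5SA or labelled TAZ4SA lie between 2041 and 2308 CPM, below the other 18.

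In the libraries labelled TAZ4SA, zinc finger genes of chromosome 19 were mostly lower than in EV. Against a background of 49.2% of genes called, 25.1% higher and 24.2% lower, 109 members were lower (58.3%) and 12 were higher (6.42%), with a median log2 fold change of -0.47 over all 187 members against -0.03 over all genes tested. The CPM of 123 members did not overlap between the groups on the lower side, or 65.8%, where 28.9% of all genes did so. ZNF genes of other chromosomes were lower for 93 of 200 with a median of -0.26, and the other protein-coding genes of chromosome 19 were mostly higher, 288 of 666 against 77 lower, with a median of 0.22. Scaling by total counts, which moved the median of all genes from -0.03 to -0.23, gave 140 members lower and 3 higher.

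The member with the greatest fall was ZNF235 (chr19:44228729-44305046, minus strand, cluster 12), a KRAB protein with 15 fingers. Its level was 13.2, 11.9 and 10.2 CPM in the 3 EV libraries and 3.54, 3.44 and 4.01 in the 3 labelled TAZ4SA. Every library labelled TAZ4SA lay well below every EV library, with a log2 fold change of -1.69, SE 0.18, adjusted p = 3.66e-08. Its neighbour ZNF112 (chr19:44326555-44367217, minus strand) was lower too, at 7.08, 7.09 and 6.06 CPM in EV and 2.37, 2.36 and 3.24 in the libraries labelled TAZ4SA (log2 fold change of -1.34, SE 0.21, adjusted p = 1.38e-05). Also in this cluster, ZNF180 (chr19:44474428-44500524, minus strand), fell from 9.56, 8.69 and 7.56 CPM to 3.05, 3.44 and 4.24, again without overlap (log2 fold change of -1.27, SE 0.17, adjusted p = 9.51e-07). ZNF45, the member of cluster 12 with the highest mean count, held 47.5, 48.2 and 46.1 CPM in EV and 27.8, 31.8 and 31.7 in the libraries labelled TAZ4SA, a narrower but cleanly separated fall (log2 fold change of -0.64, SE 0.08, adjusted p = 4.75e-07).

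From cluster 5, near the centromere of the short arm, came ZNF682 and ZNF253. ZNF682 (chr19:19997058-20039505, minus strand) held 6.08, 4.76 and 4.703 CPM in EV and 1.81, 1.72 and 2.199 in the libraries labelled TAZ4SA (log2 fold change of -1.44, SE 0.16, adjusted p = 1.24e-07). ZNF253 (chr19:19865882-19894674, plus strand) held 6.63, 5.98 and 6.25 CPM in EV and 2.85, 1.98 and 2.89 in the libraries labelled TAZ4SA (log2 fold change of -1.28, SE 0.19, adjusted p = 5.88e-06). In both genes the highest library labelled TAZ4SA was below the lowest EV library. ZNF302, the member of cluster 8 with the highest mean count, fell from 37.3, 31.9 and 30.4 CPM to 14.4, 14.5 and 18.6 (log2 fold change of -1.07, SE 0.18, adjusted p = 4.37e-05), and ZNF528, that of cluster 15, from 45.7, 39.6 and 39.6 to 24.5, 26.5 and 27.97 (log2 fold change of -0.66, SE 0.11, adjusted p = 2.9e-05). Neither gene's groups overlapped.

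Few members went the other way. ZNF560 (chr19:9466355-9498616, minus strand), a KRAB protein with 13 fingers, rose furthest: EV held 8.25, 8.35 and 6.69 CPM and the libraries labelled TAZ4SA held 16.3, 15.8 and 13.6. The lowest of the latter exceeded the highest EV library, with a log2 fold change of 0.97, SE 0.14, adjusted p = 5.51e-06. ZNF419 in cluster 16 rose from 16.3, 15.9 and 16.2 CPM to 22.5, 23.1 and 22.8 (log2 fold change of 0.50, SE 0.12, adjusted p = 0.000944), and ZNF699, which lies close to ZNF560, from 4.42, 4.19 and 3.44 to 5.75, 7.39 and 5.98 (log2 fold change of 0.66, SE 0.17, adjusted p = 0.00267). ZNF628, a protein with 16 fingers and no KRAB box, was at 4.32, 4.001 and 3.98 CPM in EV and 6.19, 5.63 and 5.94 in the libraries labelled TAZ4SA (log2 fold change of 0.53, SE 0.19, adjusted p = 0.0262). Its call did not hold throughout: adjusted p was 0.0681 without EV replicate 2, 0.0634 without EV replicate 3, 0.0717 without TAZ4SA replicate 1 and 0.0508 without TAZ4SA replicate 3. It was also lost with offsets for GC content and length (adjusted p = 0.0778) and with total-count scaling (adjusted p = 0.157).

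The promoters of ZNF560, ZNF682, ZNF235 and ZNF112 are shown from GRCh38.p14. Among members with an entry in the RefSeq promoter table, ZNF560 had the greatest rise and ZNF235 the greatest fall in the libraries labelled TAZ4SA. Among the same members, ZNF682 had the greatest fall in YAP-TFE3 and ZNF112 that in YAP5SA. Each window holds 250 bases before and 50 after the start given in that table, 5′ to 3′ on the gene's own strand. For ZNF112 the window lies inside the gene as placed above, away from its outermost start. The TEAD site CATTCC (or GGAATG on the other strand) and the E-box CACGTG, which reads the same on both strands, were searched for and would be in capitals. Neither string of letters is in these 4 windows.
ZNF560 (chr19:9498567-9498866, minus strand): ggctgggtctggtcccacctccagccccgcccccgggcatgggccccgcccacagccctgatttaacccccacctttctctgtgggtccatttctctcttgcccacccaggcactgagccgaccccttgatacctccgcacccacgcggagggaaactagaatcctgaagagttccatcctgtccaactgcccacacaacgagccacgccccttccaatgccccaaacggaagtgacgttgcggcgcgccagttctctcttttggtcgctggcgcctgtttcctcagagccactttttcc
ZNF682 (chr19:20039456-20039755, minus strand): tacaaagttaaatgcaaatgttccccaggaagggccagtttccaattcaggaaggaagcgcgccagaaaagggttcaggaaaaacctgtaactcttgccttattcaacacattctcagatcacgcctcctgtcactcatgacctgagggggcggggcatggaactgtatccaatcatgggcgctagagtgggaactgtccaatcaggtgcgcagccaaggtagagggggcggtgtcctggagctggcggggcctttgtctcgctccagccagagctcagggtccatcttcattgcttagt
ZNF235 (chr19:44304976-44305275, minus strand): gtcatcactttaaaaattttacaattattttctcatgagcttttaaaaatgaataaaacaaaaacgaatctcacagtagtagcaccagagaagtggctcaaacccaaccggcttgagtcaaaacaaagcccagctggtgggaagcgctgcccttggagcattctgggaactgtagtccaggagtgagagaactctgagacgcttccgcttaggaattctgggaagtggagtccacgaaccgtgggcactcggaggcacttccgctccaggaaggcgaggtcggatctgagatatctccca
ZNF112 (chr19:44356655-44356954, minus strand): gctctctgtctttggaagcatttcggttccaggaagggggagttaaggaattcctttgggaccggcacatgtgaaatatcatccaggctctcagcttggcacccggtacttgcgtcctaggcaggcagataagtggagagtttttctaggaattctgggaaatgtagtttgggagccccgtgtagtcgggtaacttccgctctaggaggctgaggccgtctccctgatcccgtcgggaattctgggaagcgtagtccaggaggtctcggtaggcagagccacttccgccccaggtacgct
Over the 168 members with an entry, 24 windows held CATTCC (14.3%), as did 14% of the 27305 promoters in the table. CACGTG was in 5 member windows (2.98%) and in 7.43% of all promoters. Among members lower in the libraries labelled TAZ4SA the shares were 16.2% and 3.03%, and among the other members 11.6% and 2.90%. ZNF114 and ZNF253 have no entry.

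In YAP5SA, the hyperactive YAP, most of the members called were again lower than in EV. Here 95 members were lower (50.8%) and 7 higher (3.74%), with a median log2 fold change of -0.37, where the background was 44.3% of genes called and 21.6% lower. With total-count scaling, which moved the median of all genes from -0.04 to -0.22, 128 were lower and 1 was higher. ZNF genes of other chromosomes were lower for 87 of 200 and higher for 18, with a median of -0.26. This comparison shares its EV libraries with that of TAZ4SA, so the values of both stand side by side here and are not independent.

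In YAP5SA, ZNF253 showed the greatest fall, from the EV values above to 2.08, 1.903 and 3.13 CPM (log2 fold change of -1.39, SE 0.19, adjusted p = 2.77e-06). ZNF112 stood at 2.31, 2.62 and 3.46 CPM (log2 fold change of -1.26, SE 0.21, adjusted p = 3.5e-05), and ZNF235 at 6.05, 3.85 and 5.79 (log2 fold change of -1.17, SE 0.17, adjusted p = 6.42e-06). In all 3 genes, every YAP5SA library was below every EV library. ZNF224, a KRAB repressor with 18 fingers that was first described at the aldolase A promoter, held 6.97, 4.84 and 4.99 CPM in EV and 1.700, 2.09 and 3.22 in YAP5SA. Its groups did not overlap (log2 fold change of -1.25, SE 0.23, adjusted p = 8.15e-05), and in the libraries labelled TAZ4SA it was at 2.93, 2.36 and 3.47 CPM (log2 fold change of -0.94, SE 0.22, adjusted p = 0.001). ZNF560 rose again, to 17.1, 16.3 and 14.1 CPM (log2 fold change of 1.02, SE 0.14, adjusted p = 2.9e-06), with each YAP5SA library above each EV library.

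Smaller rises in YAP5SA were less firm. ZNF331, an imprinted gene that encodes a KRAB protein, held 17.3, 16.3 and 16.4 CPM in EV and 19.3, 23.6 and 31.1 in YAP5SA (log2 fold change of 0.57, SE 0.16, adjusted p = 0.00474). One YAP5SA library was well above the others, and adjusted p was 0.0609 without YAP5SA replicate 3. ZNF699 was at 6.94, 4.85 and 5.51 CPM (log2 fold change of 0.51, SE 0.17, adjusted p = 0.0183), but adjusted p was 0.0814 without EV replicate 3 and 0.129 without YAP5SA replicate 1. ZNF419 held 22.5, 20.03 and 23.8 CPM, without overlap with EV (log2 fold change of 0.45, SE 0.12, adjusted p = 0.00256). With total-count scaling the calls of all 3 were lost (adjusted p = 0.0637, 0.132 and 0.0758).

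Counting both directions together, YAP-TFE3 gave a share of calls below the background, and a single member changed far more than any other member. Relative to EV, 49 members were lower (26.2%) and 15 higher (8.02%), with a median of -0.09, whereas 48.2% of all genes were called, 22.6% lower and 25.6% higher. With offsets for GC content and exon length, 68 were lower and 16 higher, with a median of -0.17. In that fit 24.6% of all genes were lower and 27.3% higher. ZNF114 (chr19:48270081-48287608, plus strand), the sole member of cluster 13, encodes a short KRAB protein with 3 fingers. It was at 6.32, 6.94 and 5.62 CPM in EV and 59.1, 63.6 and 46.9 in YAP-TFE3. The lowest YAP-TFE3 library lay far above the highest library of every other group, the next highest being CAMTA1 replicate 1. The difference from EV was a log2 fold change of 3.16, SE 0.22, adjusted p = 2.51e-11. TAZ-CAMTA1 held 5.34, 5.21 and 4.83 CPM of it, YAP5SA 6.85, 9.28 and 9.002, TFE3 6.34, 7.26 and 6.22 and EVsub 11.4, 12.4 and 10.2. The TFE3 values overlapped those of EV (log2 fold change of 0.07, SE 0.22, adjusted p = 1), and YAP-TFE3 exceeded YAP5SA by a log2 fold change of 2.75, SE 0.21, adjusted p = 1.55e-10.

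The next largest rise was that of ZNF468, from 17.3, 15.1 and 14.1 CPM in EV to 32.7, 27.3 and 22.4 in YAP-TFE3 (log2 fold change of 0.82, SE 0.17, adjusted p = 0.000241). All YAP-TFE3 libraries were above all EV libraries, although they spread widely. Its promoter window is shown because it had the greatest rise in YAP-TFE3 among members with a promoter entry. The window holds 1 match to the TEAD letters, in capitals as GGAATG, the same site read on the other strand, and none to CACGTG. Of all promoters, 14% hold the TEAD letters.
ZNF468 (chr19:52857570-52857869, minus strand): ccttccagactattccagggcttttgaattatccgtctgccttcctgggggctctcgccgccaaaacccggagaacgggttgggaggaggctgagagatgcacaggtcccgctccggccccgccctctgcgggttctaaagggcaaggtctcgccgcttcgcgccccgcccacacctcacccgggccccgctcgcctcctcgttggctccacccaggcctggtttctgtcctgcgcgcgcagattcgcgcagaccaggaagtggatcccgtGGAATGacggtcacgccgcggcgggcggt
ZNF419 reached 31.97, 29.4 and 22.8 CPM (log2 fold change of 0.80, SE 0.11, adjusted p = 3.27e-06), and ZNF563 went from 3.69, 3.09 and 3.39 in EV to 6.57, 5.97 and 5.03 (log2 fold change of 0.78, SE 0.18, adjusted p = 0.000769). Both were separated from EV in all libraries. ZNF317, whose mean count was among the highest, rose from 47.99, 56.5 and 56.05 CPM to 80.6, 84.2 and 68.5 (log2 fold change of 0.54, SE 0.08, adjusted p = 1.03e-05).

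On the lower side in YAP-TFE3, ZNF253 fell to 3.805, 2.701 and 2.401 CPM (log2 fold change of -1.09, SE 0.18, adjusted p = 2.81e-05) and ZNF682 to 3.02, 2.64 and 3.38 (log2 fold change of -0.78, SE 0.15, adjusted p = 0.000156), both below all EV libraries. ZNF551 of cluster 16 was at 22.3, 22.5 and 17.8 CPM in EV and 11.6, 9.92 and 15.4 in YAP-TFE3 (log2 fold change of -0.76, SE 0.14, adjusted p = 6.86e-05). ZNF578, the member with the lowest mean count, fell from 4.45, 4.31 and 4.02 CPM to 2.73, 1.73 and 3.07 (log2 fold change of -0.76, SE 0.17, adjusted p = 0.000657). ZNF175, a KRAB protein known for restricting HIV transcription, fell from 27.5, 27.3 and 27.9 CPM to 20.7, 19.9 and 22.3 (log2 fold change of -0.39, SE 0.09, adjusted p = 0.000653), while its YAP5SA values of 31.03, 28.6 and 26.2 CPM overlapped EV. Proliferation genes were also lower in YAP-TFE3, all 13 of the list, with a summed level of 1076 to 1629 CPM against 2720 to 2991 in EV. The part of that difference in the members' values was not tested.

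**Figure D2:**
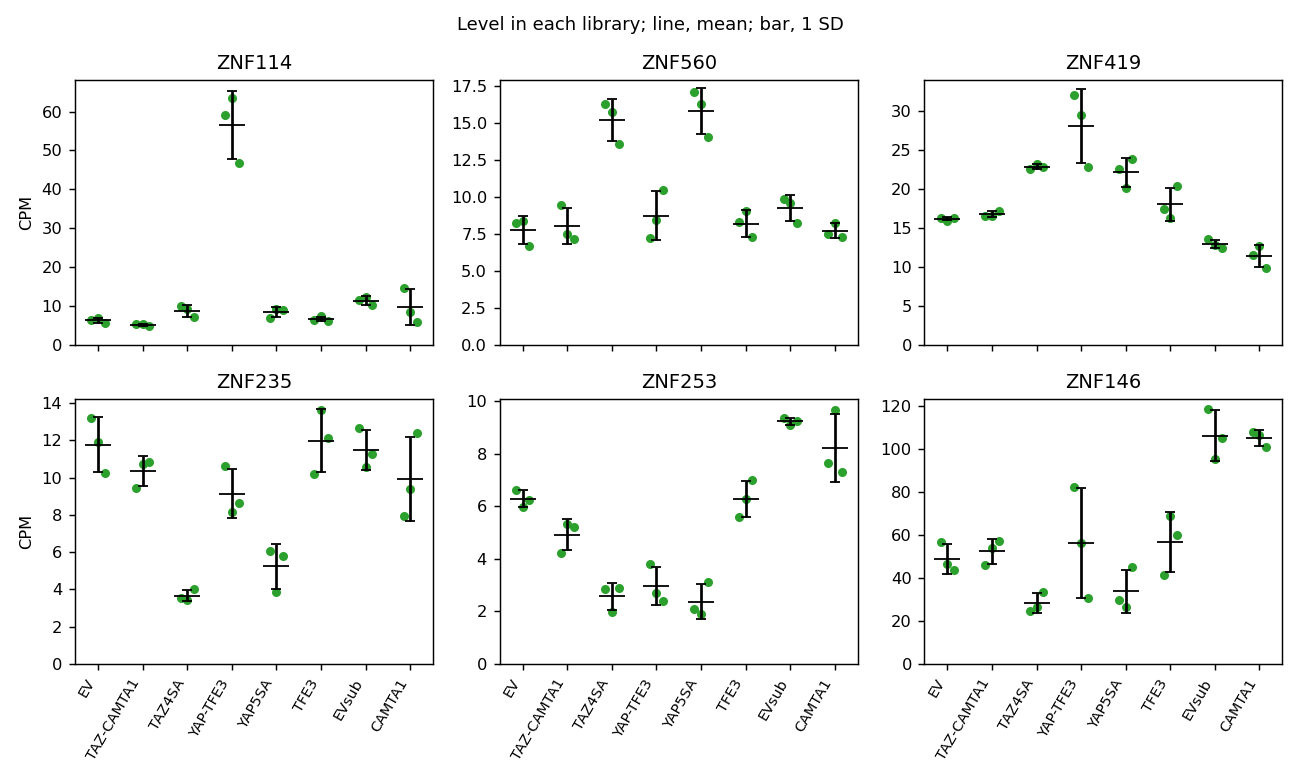
Level in CPM of ZNF114, ZNF560, ZNF419, ZNF235, ZNF253 and ZNF146 in each of the 24 libraries, by group; points are libraries, horizontal marks are means and bars are 1 SD. ZNF114 is between 46.9 and 63.6 CPM in YAP-TFE3 and below 15 in all others, and ZNF560 is above 13 CPM only in YAP5SA and the libraries labelled TAZ4SA.

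TAZ-CAMTA1 and the full-length partners gave few or no calls among the chromosome 19 zinc finger genes. In edgeR, TAZ-CAMTA1 left 186 members uncalled against EV, and 1 was lower, ZNF135 (0.535% of members, against a background of 4.98%, 3.55% higher and 1.44% lower), with a median over members of -0.05. DESeq2 called 3 lower, where 448 of all 19997 genes were lower. With offsets for GC content and length, edgeR called 7 lower and 1 higher. In that fit 1.84% of all genes were lower and 4.53% higher. ZNF135 was at 16.7, 16.4 and 17.2 CPM in EV and 12.7, 13.4 and 13.04 in TAZ-CAMTA1, with no overlap (log2 fold change of -0.36, SE 0.10, adjusted p = 0.0387). The call depended on every library of both groups: adjusted p was 0.0889 without EV replicate 1, 0.0975 without EV replicate 2, 0.115 without EV replicate 3, 0.0918 without TAZ-CAMTA1 replicate 1, 0.0834 without TAZ-CAMTA1 replicate 2 and 0.128 without TAZ-CAMTA1 replicate 3. It was also lost with total-count scaling (adjusted p = 0.0503), without the filter on low counts (0.219), with GC and length offsets (0.104) and with these offsets and a replicate block (0.103). Full-length TFE3 gave 0 calls in edgeR and 0 in DESeq2, with 0 members at an unadjusted p under 0.05, while 0.035% of all genes were called. CAMTA1 gave 0 calls against EVsub in edgeR, where the background was 1.83%, 1.26% higher and 0.57% lower, with 10 members at an unadjusted p under 0.05 and 1 called lower by DESeq2. The medians over members were 0.03 for TFE3 and -0.08 for CAMTA1.

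Cell density moved part of the family, in both directions. In EVsub, 42 members were higher than in EV (22.5%) and 16 lower (8.56%), a share of 31.0% against a background of 36.8%, of which 19.8% were higher and 17.1% lower. The median over members was 0.10. The split depended on the settings: total-count scaling gave 30 higher and 22 lower, offsets for GC content and length gave 32 and 22, and testing without the filter on low counts gave 46 and 6. Of all 19997 genes, total-count scaling gave 3106 higher and 4289 lower, and the offsets gave 18.6% higher and 14.4% lower. Leaving out EV replicate 2 left 37 calls, and leaving out EVsub replicate 1 left 33. Proliferation genes were higher in EVsub for 9 of 13, with a summed level of 4371 to 4533 CPM against 2720 to 2991 in EV, and their part in the members' values was not tested.

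The members with the largest rises in EVsub were spread over several clusters. ZNF441 (chr19:11767000-11784078, plus strand, cluster 3) was at 4.21, 3.35 and 3.93 CPM in EV and 12.2, 7.44 and 8.83 in EVsub (log2 fold change of 1.31, SE 0.29, adjusted p = 0.00123). ZNF845, which carries 26 fingers, rose from 6.63, 4.801 and 6.25 CPM to 16.3, 11.7 and 12.9 (log2 fold change of 1.21, SE 0.22, adjusted p = 0.000168). ZNF569 rose from 7.56, 4.15 and 4.99 CPM to 14.9, 10.5 and 12.5 (log2 fold change of 1.17, SE 0.26, adjusted p = 0.00119). In these 3 genes EVsub replicate 1 was the highest library and the groups did not overlap. ZNF430, at 4.38, 3.28 and 2.76 CPM in EV, stood at 8.85, 7.35 and 7.27 in EVsub (log2 fold change of 1.16, SE 0.24, adjusted p = 0.000608). ZNF146, a protein made almost wholly of zinc fingers and without a KRAB box, had the highest mean count over all libraries, with 56.6, 46.3 and 43.7 CPM in EV and 118, 95.1 and 105 in EVsub. Every EVsub library was far above every EV library (log2 fold change of 1.12, SE 0.24, adjusted p = 0.000817). CAMTA1, also sub-confluent, held 108, 106 and 101 CPM of ZNF146, within the range of EVsub.

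Several KRAB genes lay above EV in sub-confluent cells and below EV in YAP5SA. ZNF180 was at 15.3, 14.3 and 15.2 CPM in EVsub, above EV (log2 fold change of 0.79, SE 0.15, adjusted p = 0.000295), and at 3.21, 4.04 and 4.98 in YAP5SA, below EV (log2 fold change of -1.07, SE 0.16, adjusted p = 1.02e-05). ZNF93, known for silencing LINE-1 elements, held 6.53, 5.41 and 5.38 CPM in EV, 13.3, 9.601 and 10.9 in EVsub and 2.93, 2.86 and 3.22 in YAP5SA. All EVsub libraries were above EV (log2 fold change of 0.96, SE 0.20, adjusted p = 0.000796) and all YAP5SA libraries were below it (log2 fold change of -0.94, SE 0.23, adjusted p = 0.00151). ZNF91, known for silencing SVA elements, held 10.9, 9.37 and 10.3 CPM in EV and 24.4, 15.1 and 18.01 in EVsub (log2 fold change of 0.92, SE 0.21, adjusted p = 0.00163). Its values of 6.05, 5.85 and 9.24 CPM in YAP5SA did not overlap EV, yet missed the threshold (log2 fold change of -0.52, SE 0.22, adjusted p = 0.0594).

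The members that were lower in EVsub were few. ZNF554 of cluster 1 was at 6.18, 6.897 and 7.903 CPM in EV and 5.45, 4.55 and 4.35 in EVsub (log2 fold change of -0.54, SE 0.13, adjusted p = 0.0017). ZNF446 held 9.91, 10.97 and 12.2 CPM in EV and 7.51, 8.07 and 7.87 in EVsub (log2 fold change of -0.49, SE 0.11, adjusted p = 0.00174), and ZNF581 held 22.8, 27.1 and 27.7 and 16.9, 19.3 and 19.3 (log2 fold change of -0.48, SE 0.11, adjusted p = 0.00217). ZNF580, which overlaps ZNF581 on the same strand so that their reads may be shared, held 26.00, 25.99 and 26.7 CPM in EV and 16.7, 20.96 and 19.6 in EVsub (log2 fold change of -0.46, SE 0.13, adjusted p = 0.00669). For ZNF580, adjusted p was 0.0515 without EVsub replicate 1. ZNF446, ZNF580 and ZNF581 have exons of 59.8% to 63.2% GC, and with offsets for GC content and length their calls were lost (adjusted p = 0.0686, 0.141 and 0.108).

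Set directly against the hyperactive forms, both fusions had higher levels of most called members. TAZ-CAMTA1 exceeded the libraries labelled TAZ4SA for 107 members (57.2%) and was below them for 18 (9.63%), with a median of 0.40, where 53.7% of all genes were called and 26.9% were higher. Offsets for GC content and length gave 86 higher and 22 lower, with a median of 0.27. In that fit 24.9% of all genes were higher and 28.1% lower. YAP-TFE3 exceeded YAP5SA for 83 members (44.4%) and was below it for 13 (6.95%), with a median of 0.30, where 52.4% of all genes were called and 28.1% were higher. With the offsets, 69 were higher and 26 lower in that comparison, with a median of 0.16, where 27.3% of all genes were higher and 26.3% lower. A fit of those groups alone gave 57 calls. The neighbours in GC content, length and mean count described below were higher in YAP-TFE3 than in YAP5SA for 39.2%. ZNF235 differed the most between TAZ-CAMTA1, at 9.44, 10.8 and 10.9 CPM, and the libraries labelled TAZ4SA (log2 fold change of 1.497, SE 0.18, adjusted p = 2.06e-07). ZNF560 was the lowest in TAZ-CAMTA1 relative to the libraries labelled TAZ4SA, at 9.44, 7.501 and 7.17 CPM (log2 fold change of -0.92, SE 0.14, adjusted p = 7.38e-06). Besides ZNF114, the YAP-TFE3 comparison was led by ZNF433, with 9.33, 8.38 and 5.81 CPM in YAP-TFE3 and 3.26, 2.95 and 4.14 in YAP5SA (log2 fold change of 1.18, SE 0.17, adjusted p = 3.81e-06), and by ZNF429, with 5.27, 4.08 and 4.83 and 1.700, 2.14 and 2.65 (log2 fold change of 1.12, SE 0.20, adjusted p = 4.21e-05). Neither gene's libraries overlapped between those groups. ZNF71, at 15.02, 18.4 and 14.2 CPM in YAP5SA, was lower in YAP-TFE3 at 9.27, 8.699 and 9.31 (log2 fold change of -0.80, SE 0.11, adjusted p = 7.72e-07).

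Between the fusions, TAZ-CAMTA1 was higher than YAP-TFE3 for 28 members (15%) and lower for 21 (11.2%). The background was 42.7% of genes called, 19.9% higher and 22.8% lower. ZNF114 separated them most (log2 fold change of -3.46, SE 0.22, adjusted p = 1.09e-11), followed on the same side by ZNF419 (log2 fold change of -0.75, SE 0.11, adjusted p = 9.93e-06) and ZNF317 (log2 fold change of -0.72, SE 0.08, adjusted p = 2.3e-07). ZNF253 was higher in TAZ-CAMTA1, at 4.25, 5.34 and 5.199 CPM (log2 fold change of 0.74, SE 0.18, adjusted p = 0.00219), as was ZNF224, at 6.71, 6.75 and 6.21 (log2 fold change of 0.73, SE 0.20, adjusted p = 0.00567). With total-count scaling the split was 49 higher and 11 lower, where all 19997 genes gave 5094 higher and 3763 lower. With GC and length offsets it was 45 and 23, where 22.4% of all genes were higher and 25.3% lower. A fit of both groups alone gave 32 calls. ZNF681, a KRAB protein of cluster 5, was at 4.85, 5.38 and 6.398 CPM in TAZ-CAMTA1 and 4.72, 2.83 and 2.98 in YAP-TFE3 (log2 fold change of 0.67, SE 0.22, adjusted p = 0.0181), but adjusted p was 0.0915 without TAZ-CAMTA1 replicate 3, 0.0966 without YAP-TFE3 replicate 2 and 0.0698 without YAP-TFE3 replicate 3.

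**Figure D3:**
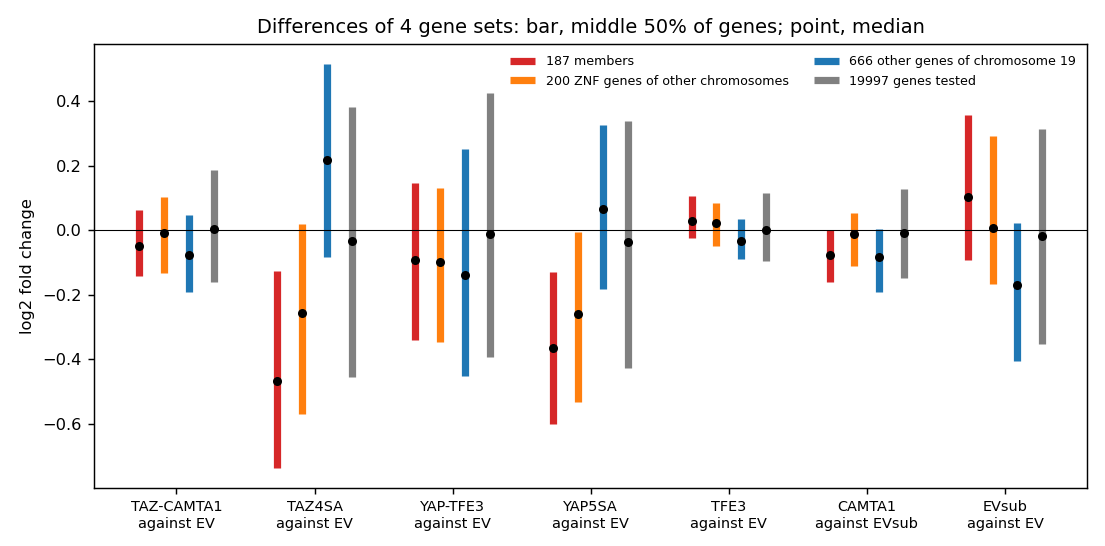
Log2 fold changes in 7 comparisons for the 187 members, 200 ZNF genes of other chromosomes, 666 other genes of chromosome 19 and all 19997 genes tested; thick bars span the middle 50% of genes and points are medians. The member median is -0.37 in YAP5SA and -0.47 in the libraries labelled TAZ4SA, where the median of all genes is -0.04 and -0.03.

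As fitted, position along chromosome 19 went with part of the variation. In the libraries labelled TAZ4SA, cluster 9 had 16 of 21 members lower and 0 higher (median -0.70), cluster 5 had 12 of 18 lower (median -0.62), and cluster 3 had 12 of 15 lower (median -0.54). Clusters 12 and 15 had medians of -0.53 and -0.52. The 5 members of cluster 8 had the lowest median, -0.98, with 4 lower. Cluster 16 had 23 of 50 lower, 7 higher and a median of -0.19. Over all genes tested, 24.2% were lower and 25.1% higher in these libraries. YAP5SA gave a similar order, with medians of -0.65 in cluster 5, -0.53 in cluster 9 and -0.26 in cluster 16. In EVsub the members of clusters 5 and 15 were called only higher, 10 of 18 and 13 of 37, while those of cluster 16 were called only lower, 10 of 50. Over all genes tested, 19.8% were higher and 17.1% lower in EVsub, so the lower share of cluster 16 was near that of all genes. Adjacent members differed by a median of 0.32 in their TAZ4SA log2 fold change, against 0.43 for pairs from different clusters, and by 0.23 against 0.36 in EVsub. The gaps were narrower in YAP5SA, 0.27 against 0.35, and in YAP-TFE3, 0.29 against 0.33. These pairs share clusters, base composition and libraries, and no test was made.

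**Figure D4:**
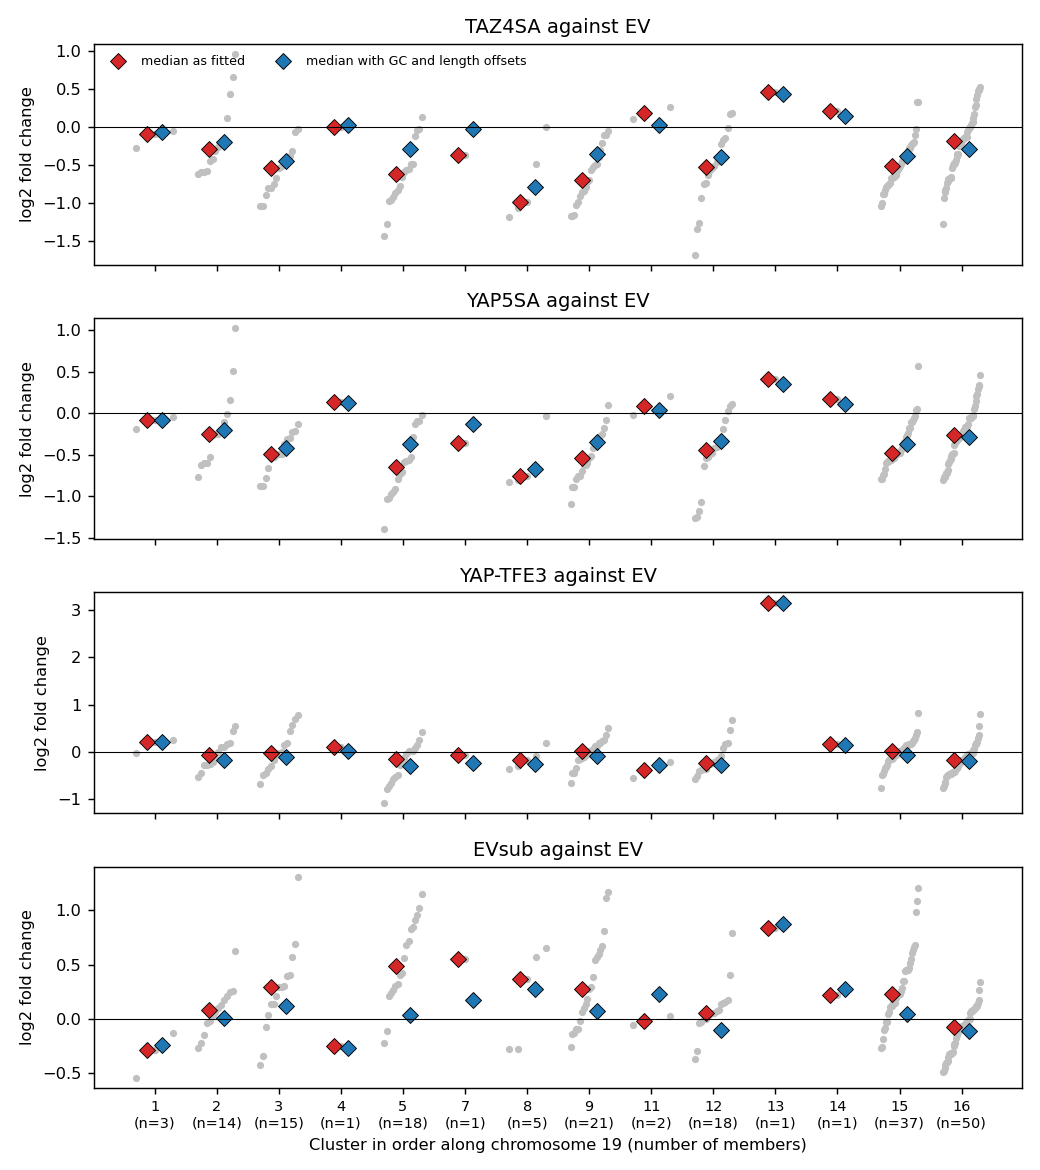
Log2 fold change against EV of every member (grey) in the libraries labelled TAZ4SA, YAP5SA, YAP-TFE3 and EVsub, by cluster in order along chromosome 19; diamonds are cluster medians as fitted (red) and with offsets for GC content and exon length (blue). In TAZ4SA the median of cluster 5 is -0.62 as fitted and -0.28 with offsets, and that of cluster 16 is -0.19 and -0.29.

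The differences went with the base composition of the transcripts. When members were cut into 3 classes of near-equal size by exon GC content, the libraries labelled TAZ4SA had 48 of 62 lower in the AT-richest class (median -0.75), 37 of 62 in the middle class (median -0.48) and 24 of 63 in the GC-richest (median -0.14). EVsub had the opposite order, with 29 higher and 0 lower in the AT-richest class and 2 higher and 15 lower in the GC-richest. Over all genes tested, 24.2% were lower and 25.1% higher in the libraries labelled TAZ4SA. In EVsub 19.8% were higher and 17.1% lower. Over the 187 members the correlation of log2 fold change with GC content was r = 0.51 in the libraries labelled TAZ4SA, 0.36 in YAP5SA, -0.06 in YAP-TFE3 and -0.55 in EVsub. These are descriptions over genes that share the same libraries. KRAB members, which are the more AT-rich, were lower in the libraries labelled TAZ4SA for 100 of 161 and higher for 6 (median -0.49), and members without a KRAB box were lower for 9 of 26 and higher for 6 (median -0.10).

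To set the members beside genes of like composition, each was placed next to 5 protein-coding genes tested that are not ZNF genes. These were the nearest to it in exon GC content, exon length and mean count, 762 distinct genes in all. In the libraries labelled TAZ4SA, 34.4% of these neighbours were lower and 19.9% higher, with a median of -0.13. Of the members, 138 lay below the median of their own neighbours and 49 above, and the median gap was -0.32. In YAP5SA, 134 lay below and 53 above (median gap -0.28), and in YAP-TFE3 116 and 71 (-0.18). In EVsub, 99 members lay below their neighbours and 88 above (-0.03), and the neighbours themselves were higher in EVsub for 29.1% and lower for 13.5%. A fit with smooth offsets for GC content and length gave 100 members lower and 14 higher in the libraries labelled TAZ4SA (median -0.33) and 96 lower and 6 higher in YAP5SA (median -0.32), 68 lower and 16 higher in YAP-TFE3 (median -0.17), and moved the EVsub median from 0.10 to -0.01. Over all genes, that fit gave 23.5% lower and 27% higher in the libraries labelled TAZ4SA. In YAP5SA it gave 22.3% lower and 25.5% higher, and in YAP-TFE3 24.6% and 27.3%. With the offsets the correlation with GC content was 0.21 in the libraries labelled TAZ4SA and -0.08 in EVsub. Mitochondrial transcripts took 5.09% to 5.43% of counts in EV, 4.11% to 4.73% in the libraries labelled TAZ4SA, 3.87% to 4.35% in YAP5SA, 3.63% to 5.12% in YAP-TFE3 and 3.2% to 3.59% in EVsub. The summed level of a list of nuclear RNAs (MALAT1, NEAT1 and KCNQ1OT1) was 192 to 230 CPM in EV, 126 to 156 in the libraries labelled TAZ4SA, 102 to 194 in YAP5SA, 188 to 264 in YAP-TFE3 and 132 to 214 in EVsub. The part of these in the members' values was not tested.

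**Figure D5:**
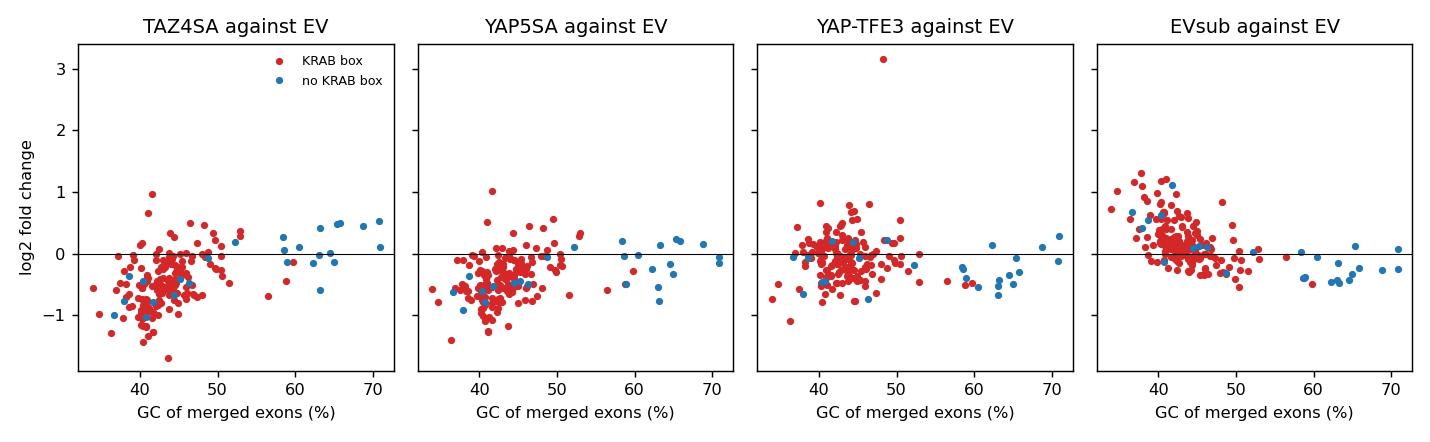
Log2 fold change against EV of each of the 187 members, by the GC content of its merged exons in percent, for TAZ4SA, YAP5SA, YAP-TFE3 and EVsub; red, members with a KRAB box, blue, members without. The points slope up in the libraries labelled TAZ4SA (r = 0.51) and down in EVsub (r = -0.55).

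Near-identical sequence between the genes limits how well reads can be placed. For 34 members, more than 10% of the 48-base windows of their exons occur more than once in the genome, inside or outside genes. Of these members, 17 were lower and 1 higher in the libraries labelled TAZ4SA. Among the 153 with fewer repeated windows, 92 were lower and 11 higher. Exons of 106 members overlap those of another gene on either strand, and whether the counting used strand is not given in the sources used here. The 81 members without such an overlap had 48 lower and 4 higher in the libraries labelled TAZ4SA, and those with one had 61 and 8. Beside all these counts, 24.2% of all genes tested were lower in these libraries and 25.1% were higher.

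Genes of the machinery through which KRAB proteins act were mostly lower in YAP-TFE3. Of a list of 22 such genes, 13 were lower and 1 higher there (median -0.39), where 22.6% of all genes were lower and 25.6% higher. In the libraries labelled TAZ4SA 9 were lower and 5 higher (median -0.13), with 24.2% and 25.1% over all genes, and in YAP5SA 5 were lower and 2 higher, with 21.6% and 22.7%. In EVsub 11 were higher and 2 lower, where 19.8% of all genes were higher and 17.1% lower. The proliferation list moved with this one, with 13 of 13 lower in YAP-TFE3 and 9 of 13 higher in EVsub, and its part in these values was not tested. In edgeR, TAZ-CAMTA1, TFE3 and CAMTA1 gave 0 calls of 22. TRIM28, the shared corepressor, was at 435 ± 26.8 CPM in EV, 507 ± 22.3 in the libraries labelled TAZ4SA (log2 fold change of 0.22, SE 0.09, adjusted p = 0.0365) and 267 ± 36.7 in YAP-TFE3 (log2 fold change of -0.71, SE 0.09, adjusted p = 3.35e-07). UHRF1, which recruits the maintenance DNA methyltransferase, had the largest fall in YAP-TFE3 (log2 fold change of -2.30, SE 0.22, adjusted p = 9.15e-09). MPHOSPH8, a subunit of the HUSH silencing complex, was the 1 that rose there (log2 fold change of 1.02, SE 0.11, adjusted p = 3.51e-08).

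Other members with a known role gave smaller or uneven differences. ZNF274, which binds the ends of zinc finger genes themselves and recruits SETDB1, was at 34.4, 34.4 and 30.9 CPM in EV and 38.9, 42.5 and 41.02 in the libraries labelled TAZ4SA (log2 fold change of 0.29, SE 0.11, adjusted p = 0.0315). These groups did not overlap, but the call was lost with total-count scaling (adjusted p = 0.482) and with GC and length offsets (0.213), and adjusted p was 0.115 without EV replicate 3, 0.0957 without TAZ4SA replicate 2 and 0.0612 without TAZ4SA replicate 3. ZNF350, a repressor that binds BRCA1, held 7.35, 5.94 and 7.56 CPM in EV and 4.58, 3.997 and 5.39 in YAP5SA (log2 fold change of -0.57, SE 0.18, adjusted p = 0.0118), although adjusted p was 0.0642 without YAP5SA replicate 2. ZNF649 held 10.2, 9.64 and 9.11 CPM in EV and 7.55, 6.44 and 7.29 in the libraries labelled TAZ4SA, without overlap (log2 fold change of -0.44, SE 0.11, adjusted p = 0.00217). ZNF675, which binds the signalling adaptor TRAF6, rose to 11.2, 8.38 and 9.003 CPM in EVsub from 5.56, 4.57 and 5.96 in EV (log2 fold change of 0.83, SE 0.18, adjusted p = 0.00117).

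ZNF473, a factor of histone pre-mRNA processing, was at 26.9, 27.4 and 26.5 CPM in EV and 32.2, 31.5 and 30.4 in the libraries labelled TAZ4SA (log2 fold change of 0.22, SE 0.11, adjusted p = 0.0932). The groups did not overlap, yet the difference missed the threshold. ZNF653, which has no KRAB box, was at 5.94, 5.45 and 6.45 CPM in EV and 3.97, 3.93 and 3.24 in YAP-TFE3 (log2 fold change of -0.68, SE 0.16, adjusted p = 0.00144), with every YAP-TFE3 library below EV. ZNF444 was at 18.9, 20.1 and 19.6 CPM in EVsub and 26.03, 26.6 and 24.6 in EV (log2 fold change of -0.40, SE 0.12, adjusted p = 0.0121), a call that offsets for GC content and length ended (adjusted p = 0.246). ZNF382 gave 5.08, 4.61 and 5.14 CPM in EV and 3.94, 3.78 and 6.096 in the libraries labelled TAZ4SA, which overlapped (log2 fold change of -0.10, SE 0.22, adjusted p = 0.745). ZNF536, which was on the list of genes with a known role, had a mean of 4.42 counts and is not a member.

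Among the members with the widest range over the groups were also ZNF254 and ZNF525, both KRAB proteins. ZNF254 of cluster 5 was at 7.84, 5.72 and 6.21 CPM in EV, 2.89, 3.22 and 3.94 in the libraries labelled TAZ4SA (log2 fold change of -0.98, SE 0.24, adjusted p = 0.00152) and 16.3, 11.4 and 12.4 in EVsub (log2 fold change of 1.02, SE 0.22, adjusted p = 0.000813). ZNF525 of cluster 15 was at 7.11, 5.91 and 7.18 CPM in EV, 3.17, 2.66 and 3.97 in the libraries labelled TAZ4SA (log2 fold change of -1.03, SE 0.26, adjusted p = 0.0022) and 15.4, 10.9 and 13.7 in EVsub (log2 fold change of 0.99, SE 0.24, adjusted p = 0.00239). In both, the 3 groups were separate, with EVsub the highest. The GC-rich ZNF524, without a KRAB box, was lower in TAZ-CAMTA1, at 3.79, 3.56 and 3.97 CPM, than in the libraries labelled TAZ4SA, at 6.27, 5.46 and 6.91 (log2 fold change of -0.72, SE 0.17, adjusted p = 0.00106).

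The members with the highest mean count in the remaining clusters gave small differences. ZNF266, that of cluster 2, was at 66.4, 70.3 and 60.9 CPM in EV and 51.9, 54.4 and 52.9 in the libraries labelled TAZ4SA (log2 fold change of -0.31, SE 0.08, adjusted p = 0.00163). ZNF791, that of cluster 3, fell from 25.3, 24.1 and 22.7 CPM to 15.4, 15.5 and 20.6 (log2 fold change of -0.49, SE 0.12, adjusted p = 0.0024). Both were separate from EV. ZNF77 of cluster 1 and ZNF333, alone in cluster 4, had log2 fold changes of -0.05 and 0.01 in the libraries labelled TAZ4SA, and their values overlapped EV. ZNF507, alone in cluster 7, was at 44.7, 35.9 and 34.8 CPM in EV and 26.8, 25.9 and 36.9 in the libraries labelled TAZ4SA (log2 fold change of -0.37, SE 0.18, adjusted p = 0.0862). ZNF526 of cluster 11 was at 21.8, 21.4 and 22.4 CPM in YAP5SA and 13.6, 15.9 and 19.5 in YAP-TFE3, which did not overlap (log2 fold change of -0.42, SE 0.10, adjusted p = 0.00157). ZNF544 of cluster 16 had the values 39.9, 43.6 and 40.9 CPM in EV and 35.2, 33.7 and 34.2 in YAP5SA, a narrow but separate fall (log2 fold change of -0.27, SE 0.08, adjusted p = 0.00769), which was lost without the filter on low counts (adjusted p = 0.113).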

How the data were processed

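Polyadenylated RNA of 24 SW872 libraries, 3 in each of 8 groups given by the sample titles, was made into stranded libraries, sequenced and aligned with Hisat2 to hg38 through bcbio-nextgen by the authors. The authors deposited 1 table of raw counts per gene and library, with Ensembl identifiers and no normalization. The study also ran Salmon and turned its estimates into counts per gene with tximport. The deposited counts are whole numbers, and whether they came from that route or from the Hisat2 alignments, and how strand and reads with several matches were handled, is not given in the sources used here. Symbols, exons and positions came from GENCODE release 44, which matched 56104 of the 60279 identifiers. Zinc fingers and KRAB boxes were counted from translations of the annotated transcripts.

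The 19997 genes that averaged 5 counts or more were fitted in R 4.3.3 with edgeR 4.0.16 (TMM, quasi-likelihood F test) over all 24 libraries with 1 mean per group, and 10 contrasts were taken. Calls are Benjamini-Hochberg adjusted p under 0.05. DESeq2 1.42.0, other scalings, filters, a replicate block, offsets for GC content and exon length (lowess, span 0.3) and the removal of each library were the alternatives. The script was tested on simulated data. CPM values use the TMM library sizes, and those of log2 CPM have a prior count of 2. Totals of 19700277 to 35287476 counts limit precision for the members with the fewest counts, at about 100 counts a library. Since an exact permutation test of 3 against 3 libraries cannot go below p = 0.1, none was used.

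The members and lists were chosen with earlier results of these data known. Named members are, per contrast, up to 4 higher and 4 lower called members with the largest change and no overlap of CPM, the 8 with the widest range over groups, 16 with a known role, the 3 on each side of the limit and the one with the highest mean count in each cluster.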

Additional observations from a re-analysis of the deposited data

How the results depend on the processing

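Of 208 pairs of a named member and a comparison with a call, 135 kept it under every setting other than the removal of a library, 124 also under the removal of each library, and 0 reversed. DESeq2 called 1 member in CAMTA1 against EVsub and 3 in TAZ-CAMTA1 against EV. In the latter comparison total counts gave 0, offsets for GC content and length 8, these offsets with a replicate block 7, and a fit of only the groups compared 2. That last fit gave 32 in TAZ-CAMTA1 against YAP-TFE3 and 57 in YAP-TFE3 against YAP5SA. It rests on fewer libraries, and for the other settings the cause was not tested. Leaving out 1 library gave 103 to 117 members called in the libraries labelled TAZ4SA, 77 to 109 in YAP5SA, 49 to 67 in YAP-TFE3, 33 to 55 in EVsub, 0 to 1 in TAZ-CAMTA1 and 0 to 0 in TFE3, each against EV. It gave 0 to 0 in CAMTA1 against EVsub, 106 to 117 in TAZ-CAMTA1 against TAZ4SA, 70 to 104 in YAP-TFE3 against YAP5SA, 35 to 50 in TAZ-CAMTA1 against YAP-TFE3 and 163 to 175 over all 8 groups.

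Total-count scaling gave 130 members higher and 7 lower in TAZ-CAMTA1 against the libraries labelled TAZ4SA, and 98 and 7 in YAP-TFE3 against YAP5SA. In no comparison did all 3 same-numbered pairs of libraries deviate together (correlation over 0.1). In YAP-TFE3 against EV and in TAZ-CAMTA1 against the libraries labelled TAZ4SA, 2 of the 3 pairs did. Whether equal replicate numbers share a batch was not tested. A fit with the number as a replicate block called 12 members higher and 109 lower in TAZ4SA, 7 and 94 in YAP5SA, 14 and 49 in YAP-TFE3 and 41 and 15 in EVsub against EV. Counting error weighs most on the members near the limit of 100 counts, and a missed threshold does not show equal levels.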
